A study of Mus musculus with 12 samples.

Results

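The genes described here load peptides onto major histocompatibility complex (MHC) molecules, or switch those genes on. They are the mouse class I heavy chains H2-K1 and H2-D1, their shared light chain B2m, the peptide transporter Tap1 and the class I transactivator Nlrc5. On the class II side they are the chains H2-Aa, H2-Ab1 and H2-Eb1, the invariant chain Cd74 and the class II transactivator Ciita. Every peak of open chromatin that the deposited tables name for 1 of these 10 genes was taken, which gave 81 of 281974 peaks. The microglia table held 51 such peaks of 91770, for all 10 genes. The NeuN+ table held 19 of 107627, for 9 genes without Tap1, and for Olig2+ nuclei there were 11 of 82577, for 7 genes without Tap1, Nlrc5 and Ciita. Peaks were taken by gene name and not by their values, but the genes were chosen with earlier results of these data known.

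The assay was ATAC-seq, which marks open DNA by where a transposase can insert, on forebrain of C57BL/6 mice aged 4 months. SgshKO mice lack Sgsh, a lysosomal enzyme that removes sulfate during the breakdown of heparan sulfate, and were set against wild-type (WT) mice of the same strain. There were 12 libraries in 6 groups of 2: microglia, NeuN+ nuclei (neurons) and Olig2+ nuclei (the oligodendrocyte lineage), each from WT and SgshKO. Microglia were live cells with low CD45 that carried CD11b and CX3CR1, whereas both kinds of nuclei were lightly fixed and came from a gate that removed PU.1+ nuclei, PU.1 being a factor of microglia and other myeloid cells. The labels do not say whether replicates were separate animals, so p-values measure the spread between these libraries, which may be technical.

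Class I molecules sit on nearly all nucleated cells and show peptides from inside the cell to CD8+ T cells. Class II molecules are made mainly by professional antigen-presenting cells, which load them in endosomes and lysosomes with peptides of ingested proteins for CD4+ T cells. Resting microglia make little class II and raise it when activated. The promoters of both classes share a module of X and Y boxes, bound by the RFX complex (Rfx5, Rfxap, Rfxank), CREB and NF-Y, to which CIITA (class II) or NLRC5 (class I) is recruited.

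The promoters are shown because peaks of the 3 sorts lie differently over them, as given further on. RefSeq windows of assembly GRCm38.p6, from 250 bases before to 50 after the annotated start, were matched for 6 of the 10 genes, and 5 are printed 5′ to 3′ on the gene's strand. The windows are H2-K1 chr17:34000298-34000597 (minus strand), H2-D1 chr17:35262844-35263143 (plus), B2m chr2:122147437-122147736 (plus), H2-Aa chr17:34287774-34288073 (minus) and H2-Eb1 chr17:34305617-34305916 (plus). Capitals mark letters of a Y box core (CCAAT or ATTGG), an X2 box core (TGACG or CGTCA), an X1 box core (AGCAAC or its reverse complement) or an interferon response element (GAAA, any 2 bases, GAAA, or its reverse complement).
H2-K1: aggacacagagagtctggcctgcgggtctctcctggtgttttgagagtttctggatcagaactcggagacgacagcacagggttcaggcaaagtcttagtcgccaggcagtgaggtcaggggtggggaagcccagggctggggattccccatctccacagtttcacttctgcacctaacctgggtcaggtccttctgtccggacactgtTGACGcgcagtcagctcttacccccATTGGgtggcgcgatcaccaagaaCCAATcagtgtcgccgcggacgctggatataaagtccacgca
H2-D1: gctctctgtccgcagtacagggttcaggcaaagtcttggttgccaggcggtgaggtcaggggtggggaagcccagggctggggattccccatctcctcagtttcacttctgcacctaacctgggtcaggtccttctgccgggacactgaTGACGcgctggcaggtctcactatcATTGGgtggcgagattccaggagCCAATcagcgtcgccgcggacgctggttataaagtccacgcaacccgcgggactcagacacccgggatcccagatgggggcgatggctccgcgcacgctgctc
B2m: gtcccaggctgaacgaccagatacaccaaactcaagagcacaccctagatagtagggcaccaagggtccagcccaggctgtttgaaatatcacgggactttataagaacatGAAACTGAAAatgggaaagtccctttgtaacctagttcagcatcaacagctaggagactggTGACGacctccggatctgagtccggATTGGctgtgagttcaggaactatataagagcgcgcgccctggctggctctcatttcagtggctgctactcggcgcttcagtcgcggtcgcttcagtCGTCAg
H2-Aa: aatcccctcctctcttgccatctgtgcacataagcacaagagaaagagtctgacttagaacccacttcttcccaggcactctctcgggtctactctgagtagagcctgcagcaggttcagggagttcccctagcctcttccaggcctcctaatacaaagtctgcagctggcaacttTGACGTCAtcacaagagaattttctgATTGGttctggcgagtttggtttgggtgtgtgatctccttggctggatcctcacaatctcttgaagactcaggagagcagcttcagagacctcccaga
H2-Eb1: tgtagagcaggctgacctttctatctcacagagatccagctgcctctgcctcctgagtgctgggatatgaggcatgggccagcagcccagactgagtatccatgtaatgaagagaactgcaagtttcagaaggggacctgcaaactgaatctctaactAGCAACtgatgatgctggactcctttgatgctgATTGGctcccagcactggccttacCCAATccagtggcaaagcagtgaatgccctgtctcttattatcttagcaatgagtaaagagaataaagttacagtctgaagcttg
The Y box core letters were in all 6 matched windows, against 37.4% of all 32851 promoter windows of that length. The X2 core letters were in 5 of 6, all but H2-Eb1, against 20.8%. The X1 core letters were in 1 of 6 (H2-Eb1, against 14.8%), as were those of the interferon response element (B2m, against 3.44%). In the H2-Aa window the X2 letters of the opposite strands overlap. The E-box bound by MITF, TFEB and TFE3 (CACGTG) was in 0 of 6, against 7.15%. A match of letters is not evidence of binding. H2-K1 and H2-D1 are close relatives, and their windows share a run of 47 identical bases, so tags from such stretches cannot be assigned to 1 gene with certainty, and the treatment of multiply mapped reads is not given in the sources used here.

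Each value is the number of sequenced tags in a peak, scaled by the authors to 10000000 tags per library, and is called tags below. A peak is named by its gene and the signed distance in bp from the peak's centre to the start site in the deposited table (negative is upstream), with mm10 coordinates. A log2 change is the difference of log2(tags + 1), SgshKO minus WT, with its standard error (SE), and limma was run over each whole table. Peaks with an adjusted p (Benjamini-Hochberg) below 0.05 are termed called. A start-site peak lies within 1000 bp. Library totals ran from 10771659 to 19555924 tags. The share of tags in peaks was 55.8% and 48.7% in WT microglia and 67.4% and 53.7% in SgshKO microglia, and SgshKO replicate 1 stands apart with the highest. It was 25.9% to 26.7% in WT and 21.2% to 21.5% in SgshKO NeuN+ nuclei, and 30.9% to 31.8% in the 4 Olig2+ libraries. All 10 microglia markers of a fixed list had a start-site peak in microglia, all 8 neuronal ones in NeuN+ nuclei, and all 8 oligodendrocyte and 6 precursor ones in Olig2+ nuclei. Scaling to tags inside peaks moved the median log2 change of all peaks from -0.08 to -0.28 in microglia and from -0.23 to 0.05 in NeuN+ nuclei, so changes are read beside that median.

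In SgshKO microglia, few peaks of the antigen presentation genes were called. Of the 51 peaks, 0 were called higher and 1 was called lower, against 7.37% of all peaks called, 5.05% called higher and 2.33% called lower. At an unadjusted p under 0.05 there were 6 peaks. None of the 17 start-site peaks was called by limma (1 had an unadjusted p under 0.05), where 9.80% of all start-site peaks were. The median log2 change was -0.06, beside -0.08 over all microglia peaks, and 24 peaks were above 0 and 27 below. Both SgshKO libraries were above both WT libraries at 13 peaks and below both at 13, against 23% and 28.1% of all peaks. The genotype difference and its SE at each of the 81 peaks are drawn by gene in the plot of log2 changes.

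**Figure D1:**
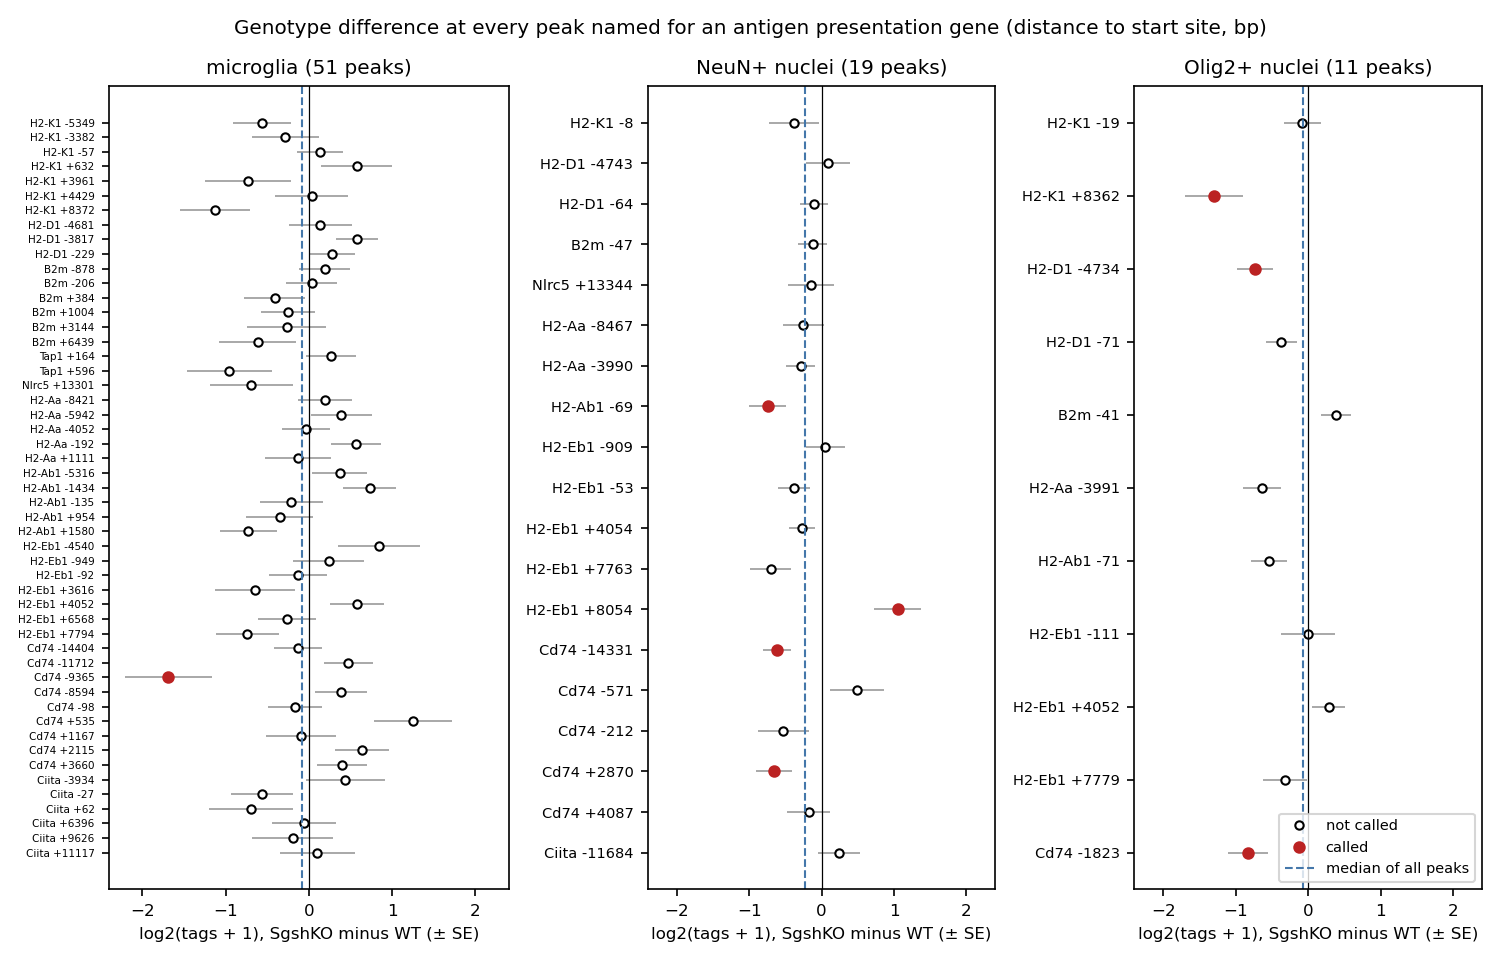
The log2 change of SgshKO against WT (x axis, log2(tags + 1), with standard error) is plotted for every peak named for 1 of the 10 genes, in 3 panels by sort, with called peaks filled and the median of all peaks dashed. In microglia 1 of 51 peaks is filled, in NeuN+ nuclei 4 of 19 and in Olig2+ nuclei 3 of 11.

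The class I chains had open, high promoters in microglia of both genotypes. At H2-K1 -57 (chr17:34000284-34000524, over the promoter and start), WT replicates 1 and 2 had 191 and 175 tags and SgshKO replicates 1 and 2 had 191.3 and 209.8. The SgshKO libraries were both above the WT ones, by a margin of less than 1 tag for replicate 1, and the log2 change was 0.13 ± 0.27 (SE, limma adjusted p = 0.832). H2-D1 -229 (chr17:35262765-35262965) had 197 and 179.6 tags in WT and 225 and 233 in SgshKO. The groups did not overlap, and the log2 change was 0.28 ± 0.27 (adjusted p = 0.585). B2m, the chain without which class I does not reach the cell surface, had 136 and 87.3 tags in WT and 113 and 110 in SgshKO at its -206 peak (chr2:122147381-122147582). There the WT libraries bracketed the SgshKO ones, and the log2 change was 0.04 ± 0.31 (adjusted p = 0.964). The direction of all 3 promoters rests on the scaling: with quantile normalization the log2 changes were -0.21 for H2-K1, -0.08 for H2-D1 and -0.15 for B2m.

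The highest class I peak in microglia, and of all 51, was H2-D1 -3817 (chr17:35259163-35259391, intergenic), with 368 and 314 tags in WT and 585 and 440 in SgshKO. Both SgshKO libraries exceeded both WT libraries, the means were 341 ± 38.1 and 513 ± 103 (SD, n = 2), and the log2 change of 0.58 ± 0.25 was not called (limma adjusted p = 0.168). It was called in 4 of 13 alternatives, with edgeR (adjusted p = 0.0197), median-of-ratios scaling, a replicate block and without SgshKO replicate 2. Downstream of H2-K1, the intergenic peak at 8372 (chr17:33991846-33992076) went the other way, with 38.9 and 30.5 tags in WT and 14.7 and 15.8 in SgshKO. The groups did not overlap, with means of 34.7 ± 5.93 and 15.3 ± 0.75 (SD, n = 2), and the log2 change of -1.13 ± 0.42 had an adjusted p of 0.0954. It was called in 6 of 13 alternatives. Over the 16 peaks of the class I chains, 4 had SgshKO above WT without overlap, 4 below, and 8 overlapped. The shares of all microglia peaks were 23% above and 28.1% below.

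Tap1, which pumps cytosolic peptides into the endoplasmic reticulum, had 115 and 89.8 tags in WT and 139 and 109 in SgshKO at its 164 peak (chr17:34187605-34187836). The groups overlapped, with a log2 change of 0.27 ± 0.30 (limma adjusted p = 0.651). Just upstream, the peak over the promoter that Tap1 shares with the immunoproteasome subunit Psmb9 is named for Psmb9 (-66, chr17:34187294-34187499). It had 88.2 and 63.5 tags in WT and 99.6 and 150 in SgshKO microglia, a log2 change of 0.70 ± 0.32 that was not called (adjusted p = 0.18). Nlrc5 had 1 microglia peak under its own name, at 13301 in intron 11 (chr8:94485949-94486180), with 14.7 and 10.2 tags in WT and 6.93 and 7.43 in SgshKO. The groups did not overlap, and the log2 change was -0.70 ± 0.50 (adjusted p = 0.438).

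The class II chain genes, which lie side by side on chromosome 17, showed a mixture within the same locus. At the H2-Aa start (-192, chr17:34287852-34288074), WT microglia had 99.4 and 97.4 tags and SgshKO microglia 177 and 120. The groups were apart, but the SgshKO libraries differed more from each other than replicate 2 did from WT, and the log2 change of 0.56 ± 0.30 was not called (limma adjusted p = 0.27). H2-Ab1 -1434 (chr17:34261681-34261905) had 75.2 and 65.2 tags in WT and 141 and 96.6 in SgshKO, a log2 change of 0.73 ± 0.32 (adjusted p = 0.159), again with replicate 1 the higher. The H2-Ab1 start itself (-135, chr17:34262988-34263197) had 40.6 and 37.3 tags in WT and 35.5 and 31.6 in SgshKO, a small drop without overlap (log2 change -0.21 ± 0.38, adjusted p = 0.796).

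Inside H2-Eb1, none of the 3 microglia peaks of intron 2 was called by limma. At 4052 (chr17:34309803-34310036) WT microglia had 65.7 and 56.8 tags and SgshKO 103 and 81.7, a log2 change of 0.58 ± 0.32 (limma adjusted p = 0.294). At 7794 (chr17:34313555-34313768) WT had 50.1 and 48.3 tags and SgshKO 33.8 and 25.1, a log2 change of -0.74 ± 0.37 (adjusted p = 0.242). Neither pair of groups overlapped, with SgshKO above WT at 4052 and below at 7794. Between these peaks, at 6568, WT had 61.4 and 72.9 tags and SgshKO 73.6 and 41.8, with overlap. The H2-Aa peak with the most tags, intergenic at -4052 (chr17:34291713-34291934), had 124 and 142 tags in WT and 137 and 123 in SgshKO, so that the SgshKO libraries spanned the lower WT one (log2 change -0.04 ± 0.29, adjusted p = 0.958). The H2-Eb1 start (-92, chr17:34305615-34305936) had 53.6 and 49.1 tags in WT and 49.4 and 44.6 in SgshKO, and the groups overlapped (log2 change -0.13 ± 0.35, adjusted p = 0.875). Over all microglia peaks, 23% were above WT without overlap and 28.1% were below. Of the 17 peaks of the class II chains, 5 were above WT without overlap, 5 were below and 7 overlapped. The map of the class II locus shows these peaks at their distances.

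**Figure D2:**
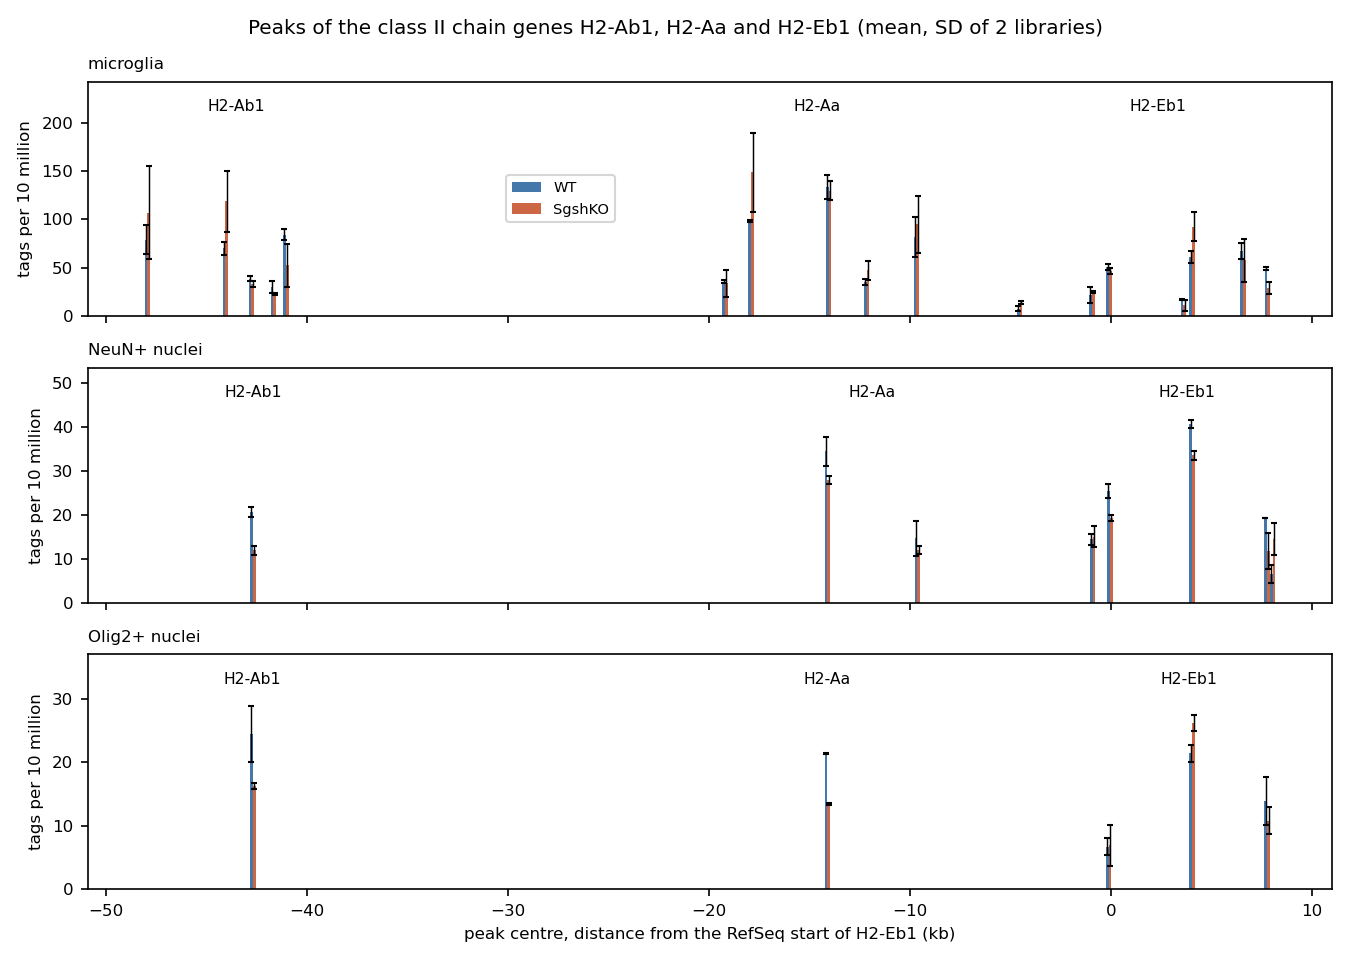
Mean tags per 10000000 (y axis, SD of 2 libraries as error bars, a separate scale per panel) are drawn at the distance of each peak centre from the RefSeq start of H2-Eb1 (x axis, kb) for peaks named for H2-Ab1, H2-Aa and H2-Eb1, WT beside SgshKO. Microglia have 17 of these peaks, NeuN+ nuclei 8 and Olig2+ nuclei 5, and the microglia bars for SgshKO lie both above and below those for WT.

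Cd74, the invariant chain that guides class II molecules to the endosome, held the 1 called microglia peak. That peak, at -9365 in intergenic sequence (chromosome 18, bases 60794382 to 60794587), had 18.2 and 11.9 tags in WT and 2.60 and 5.57 in SgshKO. Both SgshKO libraries were below WT, 15.0 ± 4.45 against 4.09 ± 2.10 (SD, n = 2), with a log2 change of -1.69 ± 0.52 (limma adjusted p = 0.0398). It rested on as few as 3 reads in a library and was called in 7 of the 11 alternatives that gave a value. Without WT replicate 1 its adjusted p was 0.743, without WT replicate 2 0.581. The Cd74 start (-98) had 76.1 and 77.1 tags in WT and 78.8 and 58.5 in SgshKO, which overlapped (log2 change -0.17 ± 0.33, adjusted p = 0.811). Several other Cd74 peaks lay higher in SgshKO without being called. The largest such difference was in intron 1 at 535, with 7.78 and 10.2 tags in WT and 26.0 and 19.5 in SgshKO (log2 change 1.25 ± 0.47, adjusted p = 0.0959), and it was called in 5 of 13 alternatives. The highest Cd74 peak by mean, at -11712, had 140 and 128 tags in WT and 243 and 142 in SgshKO, so that SgshKO replicate 1 stood well above the other 3 libraries (log2 change 0.47 ± 0.29, adjusted p = 0.36). Of the 9 Cd74 peaks, 4 were above WT without overlap, 1 was below and 4 overlapped. Among all microglia peaks, 23% were above WT without overlap and 28.1% were below.

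Ciita, the factor on which class II transcription depends, has several promoters. One annotated start (-27, chr16:10479895-10480196) had 57.9 and 42.4 tags in WT and 42.4 and 26.0 in SgshKO, which overlapped by 0.06 of a tag (log2 change -0.56 ± 0.38, limma adjusted p = 0.40). Another start further along the gene (62, chr16:10489740-10489947) had 13.8 and 10.2 tags in WT and 8.66 and 5.57 in SgshKO, without overlap (log2 change -0.69 ± 0.50, adjusted p = 0.446). None of its 6 peaks was called by limma, where 7.37% of all microglia peaks were. Between genotypes 5 of the 6 overlapped and 1 was below WT. Over all microglia peaks 23% were above WT without overlap and 28.1% were below.

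**Figure D3:**
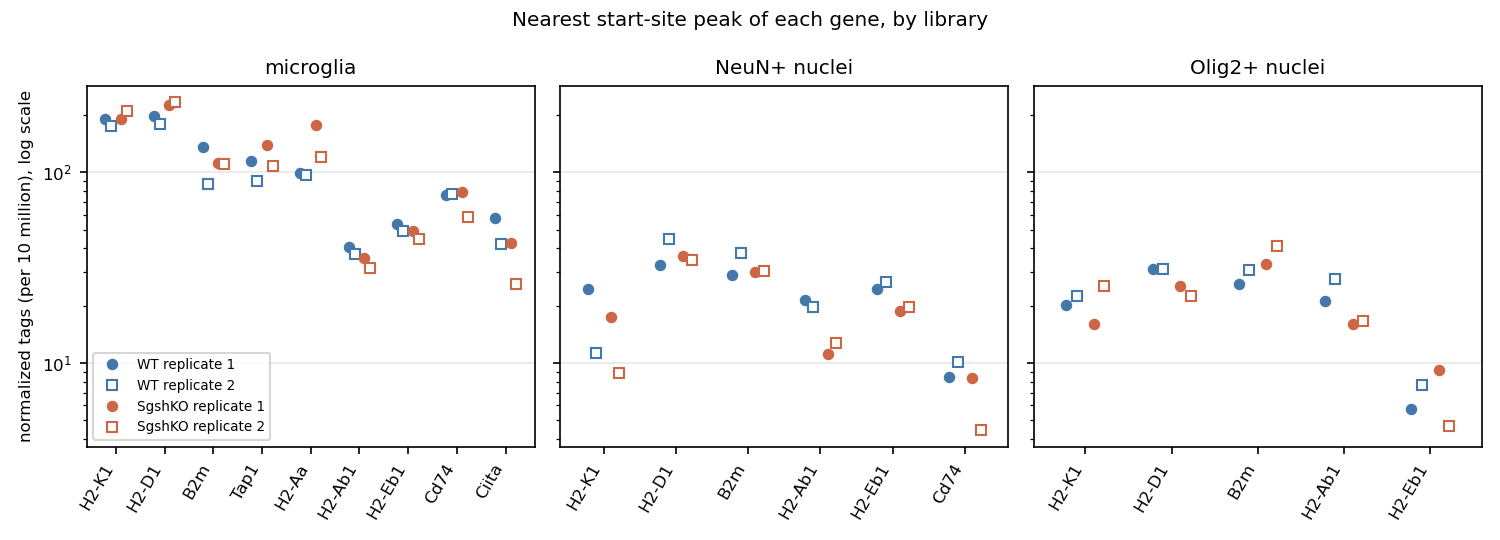
Tags per 10000000 (y axis, log scale) are plotted for each of the 4 libraries of a sort at the peak nearest the start of each gene, WT in blue and SgshKO in orange, replicate 1 filled and replicate 2 open. In microglia the symbols of the genotypes intermingle or sit close at most genes, with H2-Aa of SgshKO replicate 1 (177 tags) well above the rest.

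How many microglia peaks were called depended on which SgshKO library was kept, at these genes and over the whole table alike. SgshKO replicate 1 was above both WT libraries at 27 of the 51 peaks and below both at 15 (52.9% and 29.4%), beside 49.9% and 31.7% of all microglia peaks. Replicate 2 was above both at 15 and below both at 25 (29.4% and 49.0%), beside 25.8% and 56.4% of all, so the members' shares lay near those of the table. Replicate 1 exceeded replicate 2 at 36 of 51 peaks (70.6%), and at 77.6% of all microglia peaks. Without SgshKO replicate 2, 9 of the 51 peaks were called, where 18% of all peaks were, 6 higher and 3 lower, among them H2-D1 -3817, H2-Aa -192, H2-Ab1 -1434 and Cd74 -11712. Without SgshKO replicate 1, 6 were called, where 20.5% of all peaks were, and all 6 were lower, among them H2-Ab1 1580, H2-K1 -5349 and H2-Eb1 7794. Without either WT library 0 were called by limma (0 and 3 at an unadjusted p under 0.05), where 1.26% and 0.607% of all peaks were. H2-K1 8372 and Cd74 -9365 were called lower whichever SgshKO library was left out.

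Start-site peaks of most marker lists, of immune and of other brain cells, were highest in SgshKO replicate 1, the library that stands apart. The summed tags of 6 B cell markers, of which 3 had a peak and Cd79a, Ms4a1 and Blk had none, reached 60.5 and 60.1 in WT, and 97 and 42.7 in SgshKO. Among 8 dendritic cell markers (4 with a peak) WT summed to 612 and 601 and SgshKO to 752 and 644, and for 8 border macrophage markers (4 with a peak) 144 and 104 against 170 and 119. For 6 T cell markers 1 had a peak, with 4.3 and 6.8 against 16.4 and 13, and Cd3e, Cd3d and Cd3g had none. For 10 microglia markers the sums were 2651 and 2256 against 2828 and 2196. Among other brain cells, 8 neuronal markers (2 with a peak) summed to 114 and 134 against 161 and 116, and 8 oligodendrocyte markers (3 with a peak) to 270 and 239 against 353.2 and 300. The 6 astrocyte markers (3 with a peak) summed to 219.5 and 180 against 229 and 160, whereas endothelial and oligodendrocyte precursor lists were highest in WT replicate 1. In a sorted population, a few cells with wide-open class II chromatin and a small gain in each cell cannot be told apart, and the part of other cells in the class II values was not tested.

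In NeuN+ nuclei the antigen presentation genes had fewer peaks than in microglia, mostly with fewer tags, and a minority were called. Within NeuN+ nuclei these peaks were not low: their median in WT was 17.82 tags, beside 12.45 over all NeuN+ peaks. Of 19 peaks, 1 was called higher and 3 lower, against 29.8% of all NeuN+ peaks called, 10.2% higher and 19.6% lower. Their median log2 change of -0.25 was close to the -0.23 of all peaks. Both SgshKO libraries were above both WT libraries at 2 peaks and below at 9, against 24.1% and 44.4% of all peaks. Of 8 start-site peaks 1 was called, against 46.6% of all start-site peaks in NeuN+ nuclei.

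All 4 called NeuN+ peaks were at class II genes, which held 14 of the 19 peaks, where 29.8% of all NeuN+ peaks were called. At the H2-Ab1 start (-69, chr17:34263040-34263277), WT nuclei had 21.5 and 19.8 tags and SgshKO nuclei 11.2 and 12.7, without overlap, a log2 change of -0.74 ± 0.26 (limma adjusted p = 0.0362). Cd74 -14331 had 40.2 and 37.3 tags in WT and 25.8 and 24.1 in SgshKO (log2 change -0.61 ± 0.20, adjusted p = 0.0258). Cd74 2870, in intron 1, had 25.5 and 29.9 tags in WT and 20.9 and 13.97 in SgshKO (log2 change -0.66 ± 0.25, adjusted p = 0.0494). These 3 falls were each under the threshold at the deposited scaling and in 3 or 4 of 13 alternatives, and none was called when tags were scaled within peaks, by median of ratios or by quantiles, or with edgeR or DESeq2, nor without any 1 library. The rise was in intron 2 of H2-Eb1 at 8054 (chr17:34313818-34314025), with 7.93 and 5.08 tags in WT and 11.9 and 17.1 in SgshKO (log2 change 1.05 ± 0.33, adjusted p = 0.022), and it was called in 9 of 13 alternatives. The adjacent peak at 7763 had 19.3 and 19.2 tags in WT and 14.7 and 8.89 in SgshKO, the reverse order (log2 change -0.70 ± 0.28, adjusted p = 0.0666).

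The other class II peaks of NeuN+ nuclei were not called, and most lay lower in SgshKO. The highest of them, H2-Eb1 4054 in intron 2 (chr17:34309811-34310031), had 41.4 and 40.1 tags in WT and 32.8 and 34.3 in SgshKO (log2 change -0.27 ± 0.18, limma adjusted p = 0.26). The H2-Eb1 start (-53) had 24.4 and 26.5 tags in WT and 18.9 and 19.7 in SgshKO (log2 change -0.38 ± 0.22, adjusted p = 0.198), and H2-Aa -3990 had 36.8 and 32.2 against 28.6 and 27.3 (log2 change -0.29 ± 0.20, adjusted p = 0.268). These 3 were below WT without overlap. The Cd74 start (-212), at 8.50 and 10.2 tags in WT and 8.38 and 4.44 in SgshKO, was lower than any other NeuN+ start of these genes (log2 change -0.53 ± 0.35, adjusted p = 0.26). The 1 Ciita peak, upstream at -11684, had 13.6 and 9.04 tags in WT and 13.96 and 12.7 in SgshKO, with overlap.

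The 5 NeuN+ peaks on the class I side (H2-K1, H2-D1, B2m and Nlrc5) overlapped between genotypes and none was called by limma. Over all NeuN+ peaks 29.8% were called, 24.1% had SgshKO above WT without overlap and 44.4% below. H2-D1 -64 had 32.9 and 44.6 tags in WT and 36.3 and 34.9 in SgshKO, and B2m -47 had 28.9 and 37.8 against 30.0 and 30.5. H2-K1 -8 had 24.4 and 11.3 tags in WT and 17.5 and 8.89 in SgshKO, a spread within each genotype wider than the gap between them. Nlrc5 13344, in intron 11, was low in all 4 libraries, at 9.63 and 9.04 tags in WT and 9.07 and 7.62 in SgshKO. The NeuN+ counts rest on both SgshKO libraries, since leaving out either removed the limma calls over the whole table. Leaving out a WT library lowered the calls over the whole table without removing them. No start-site peak was found in NeuN+ nuclei for 9 of 10 microglia markers, Cx3cr1, P2ry12 and Tmem119 among them, nor for any border macrophage, B cell or T cell marker of the lists, while 4 of 8 dendritic cell markers had one. The summed peaks of each marker list that had any were lower in both SgshKO than in both WT libraries of NeuN+ nuclei, as were 3 of the 4 called class II peaks. Those of the remaining microglia marker summed to 54.4 and 48.0 tags in WT and 34.2 and 32.4 in SgshKO, and those of dendritic cell markers to 131 in both WT libraries and 70.5 and 92.7 in SgshKO. Neuronal markers summed to 848 and 773 against 441 and 472, and oligodendrocyte markers (3 of 8 with a peak) to 144 and 128 against 68.4 and 69.8. The part of other cells or of a shift over the whole library in the class II values was not tested.

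In Olig2+ nuclei 3 of 11 peaks were called and all were lower in SgshKO, against 19.8% of all peaks called, 8.17% higher and 11.7% lower. The median log2 change was -0.37, beside -0.07 over all peaks of the table, and 9 of 11 were below 0. The SgshKO libraries were both above WT at 2 peaks and both below at 6, against 26.4% and 34.9% of all peaks. None of the 5 start-site peaks was called by limma (1 had an unadjusted p under 0.05), against 20.3% of all start-site peaks.

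The called Olig2+ peaks were all intergenic. The H2-K1 peak at 8362 (chr17:33991848-33992094), the same place as the microglia peak at 8372, had 6.22 and 9.20 tags in WT and 3.07 and 1.99 in SgshKO. The groups did not overlap (log2 change -1.30 ± 0.40, limma adjusted p = 0.0212), at as few as 3 reads in a library. H2-D1 -4734 (chr17:35258230-35258490) had 22.8 and 26.1 tags in WT and 15.4 and 13.3 in SgshKO (log2 change -0.73 ± 0.25, adjusted p = 0.0391). Cd74 -1823 had 18.2 and 21.99 tags in WT and 11.7 and 9.97 in SgshKO (log2 change -0.83 ± 0.28, adjusted p = 0.0332). Without either WT library none of the 3 was called (4 and 0 of the 11 peaks had an unadjusted p under 0.05), and without SgshKO replicate 2 only H2-K1 8362 was. With quantile normalization and with DESeq2 0 of 11 were called (5 and 0 at an unadjusted p under 0.05).

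At Olig2+ promoters no difference was called. B2m -41 had 25.9 and 30.7 tags in WT and 33.2 and 41.2 in SgshKO, above WT without overlap (log2 change 0.38 ± 0.21, limma adjusted p = 0.193). H2-Ab1 -71 had 21.3 and 27.6 tags in WT and 16.0 and 16.6 in SgshKO, below without overlap (log2 change -0.55 ± 0.25, adjusted p = 0.118). H2-D1 -71 had 31.1 and 31.2 tags in WT and 25.2 and 22.6 in SgshKO (log2 change -0.37 ± 0.22, adjusted p = 0.227). The H2-K1 start (-19) had 20.2 and 22.5 tags in WT and 16.0 and 25.3 in SgshKO, so the SgshKO libraries enclosed both WT values, and the low H2-Eb1 start (-111) had 5.71 and 7.67 tags against 9.22 and 4.65, likewise. Away from the starts, H2-Aa -3991 had 21.3 and 21.5 tags in WT and 13.5 and 13.3 in SgshKO, with close replicates (log2 change -0.64 ± 0.26, adjusted p = 0.0809). H2-Eb1 4052 had 22.3 and 20.5 tags in WT and 27.1 and 25.3 in SgshKO, above WT without overlap (log2 change 0.28 ± 0.23, adjusted p = 0.405). No start-site peak was found in Olig2+ nuclei for 8 of 10 microglia markers, nor for any border macrophage, B cell or T cell marker of the lists. Peaks of the other 2 microglia markers summed to 240 and 233 tags in WT and 271 and 284 in SgshKO. Those of 2 of 8 dendritic cell markers summed to 78.3 and 72.1 against 125 and 108. Oligodendrocyte markers went the other way, at 2942 and 2949 against 2343 and 2391. The part of other cells in these values was not tested.

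Peaks of these genes were fewer and mostly lower in nuclei than in microglia. Of the 51 microglia peaks, 14 (27.5%) overlapped a NeuN+ peak and 10 (19.6%) an Olig2+ peak by at least 1 bp. In turn, 14 of the 19 NeuN+ peaks (73.7%) and 10 of the 11 Olig2+ peaks (90.9%) overlapped a microglia peak. The same shares were not computed over all peaks, so these are not shown to be particular to the antigen presentation genes. One-to-one reciprocal overlap of 50% in all 3 tables left 16761 peaks, of which 7 belong to these genes. In WT, all 7 were called higher in microglia than in NeuN+ nuclei, where 46.5% of all matched peaks were called higher and 65.8% in either direction, with a median log2 difference of 1.31 beside 0.47 over all. Against Olig2+ nuclei 6 of 7 were called higher in microglia, all but H2-D1 -4681 (42.7% of all called higher, 67.2% in either direction), with a median of 1.77 beside 0.35. Fixed nuclei and live cells were prepared differently, so preparation and cell type cannot be told apart in these comparisons.

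The H2-K1 start was the widest gap, at 183 ± 11.1 tags in WT microglia, 17.8 ± 9.24 in NeuN+ and 21.4 ± 1.61 in Olig2+ nuclei (SD, n = 2). The log2 difference was 3.38 ± 0.31 against NeuN+ (limma adjusted p = 2.08e-09) and 3.04 ± 0.31 against Olig2+ nuclei (adjusted p = 9.94e-09), and it held in all 17 alternatives of each. The intergenic H2-Aa -4052 peak had 133 ± 12.6 tags in microglia, 34.5 ± 3.27 in NeuN+ and 21.4 ± 0.15 in Olig2+ nuclei, and also held in all 17. At the H2-Ab1 start the levels were closer, 39.0 ± 2.37, 20.7 ± 1.25 and 24.4 ± 4.48 tags, a log2 difference of 0.88 between microglia and NeuN+ nuclei. The zero of these differences is set by the scaling. Scaling to tags inside peaks moved the median of all matched peaks from 0.47 to -0.49 and that of the 7 from 1.31 to 0.36, and quantile normalization moved them to -0.055 and 0.71. With this common shift 3 and 4 of the 7 were called higher in microglia and 0 lower. Of all matched peaks 66.5% and 67.4% were called in either direction, and the share called higher was not counted under these scalings. The H2-Ab1 start stood at -0.07 and H2-Eb1 4052 at -0.39 with in-peak scaling.

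Between WT NeuN+ and Olig2+ nuclei 4 of the 7 peaks were called (49.5% of all matched peaks). The H2-Eb1 start had 25.5 ± 1.54 tags in NeuN+ and 6.69 ± 1.39 in Olig2+ nuclei, a log2 difference of 1.79 ± 0.31 (limma adjusted p = 4.31e-05). H2-Eb1 4052 and H2-Aa -4052 were also higher in NeuN+ nuclei, while H2-D1 -4681 was lower, 10.8 ± 3.22 against 24.5 ± 2.31 tags (log2 difference -1.14 ± 0.30, adjusted p = 0.00278). The H2-K1 and H2-Ab1 starts and H2-Eb1 7794 were not called.

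**Figure D4:**
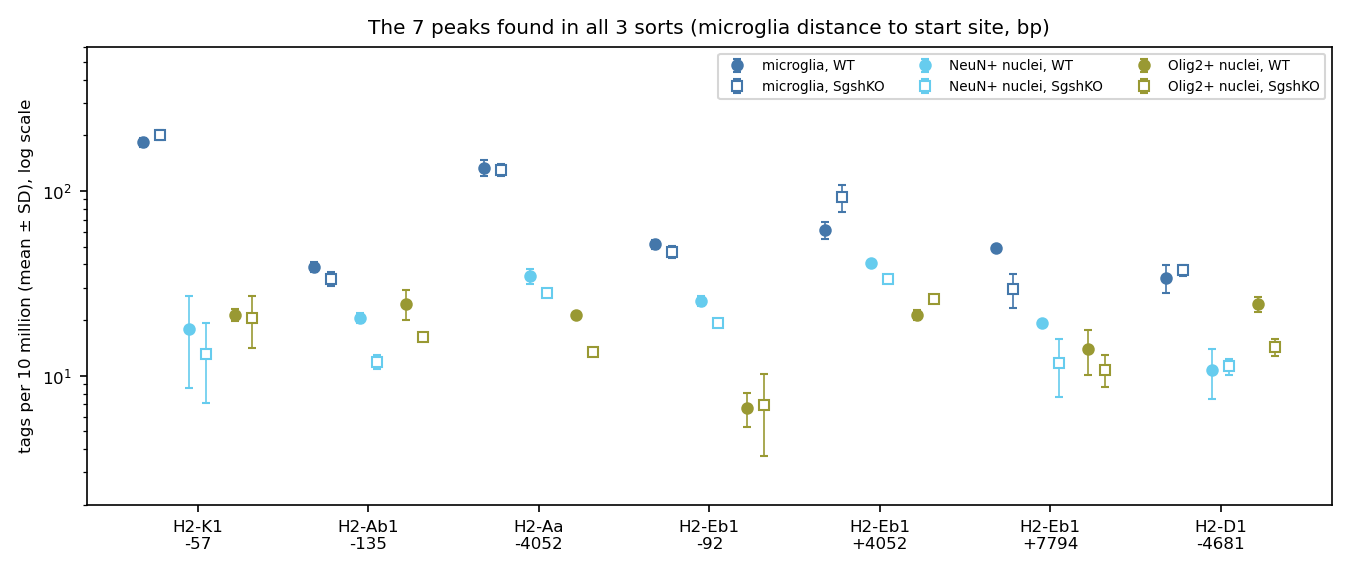
Mean tags per 10000000 with SD of 2 libraries (y axis, log scale) are plotted for the 7 peaks found in all 3 sorts, named by gene and microglia distance, with WT filled and SgshKO open. Microglia lie highest at each of the 7 peaks in WT, and at H2-K1 -57 by far, at 183 tags against 17.8 and 21.4.

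The difference between genotypes was also compared between sorts at these 7 peaks. Between microglia and NeuN+ nuclei 1 of 7 differed, against 42.5% of all matched peaks. It was H2-Eb1 4052, which went from 61.2 ± 6.31 to 92.4 ± 15.1 tags in microglia and from 40.7 ± 0.88 to 33.6 ± 1.04 in NeuN+ nuclei (SD, n = 2), a difference of log2 changes of 0.85 ± 0.31 (limma adjusted p = 0.028). The median over all matched peaks was 0.61 in the same direction, and the call was lost when tags were scaled within peaks (0.35, adjusted p = 0.355). Between microglia and Olig2+ nuclei 0 of 7 differed by limma (21.6% of all, with H2-D1 -4681 at an unadjusted p of 0.0495), and between NeuN+ and Olig2+ nuclei 0 of 7 by limma (31.7% of all, with 0 at an unadjusted p under 0.05).

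At the promoters of B2m and H2-D1 the microglia peak nearest the start lay further upstream than those of the nuclei, and at H2-K1 the peaks of the 3 sorts lay over the same place. The microglia B2m peak ran from -306 to -105 bp of the RefSeq start, whereas that of NeuN+ nuclei ran from -165 to 72 and that of Olig2+ nuclei from -152 to 71. The X2 core letters at -78 and the Y core letters at -53 of the B2m window printed above lay inside the peaks of both nuclei sorts and outside the microglia peak, and the interferon response element at -139 lay inside all 3. H2-D1 had the same arrangement, with the microglia peak from -329 to -129, the NeuN+ peak from -181 to 53 and the Olig2+ peak from -188 to 46, and the X2 letters at -101 and Y letters at -76 and -53 inside the latter 2. At H2-K1 the peaks of all 3 sorts covered the start, and the X2 letters at -41 and Y letters at -16 and 8 lay inside each. Peak edges are those of the authors' caller, and a window outside a peak is not shown to be closed. Microglia had 112 ± 34.2 tags at B2m -206 and 188 ± 12.3 at H2-D1 -229 in WT, against 33.4 ± 6.33 and 38.7 ± 8.32 in NeuN+ and 28.3 ± 3.36 and 31.2 ± 0.05 in Olig2+ nuclei, at peaks that were not matched and so were not tested.

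**Figure D5:**
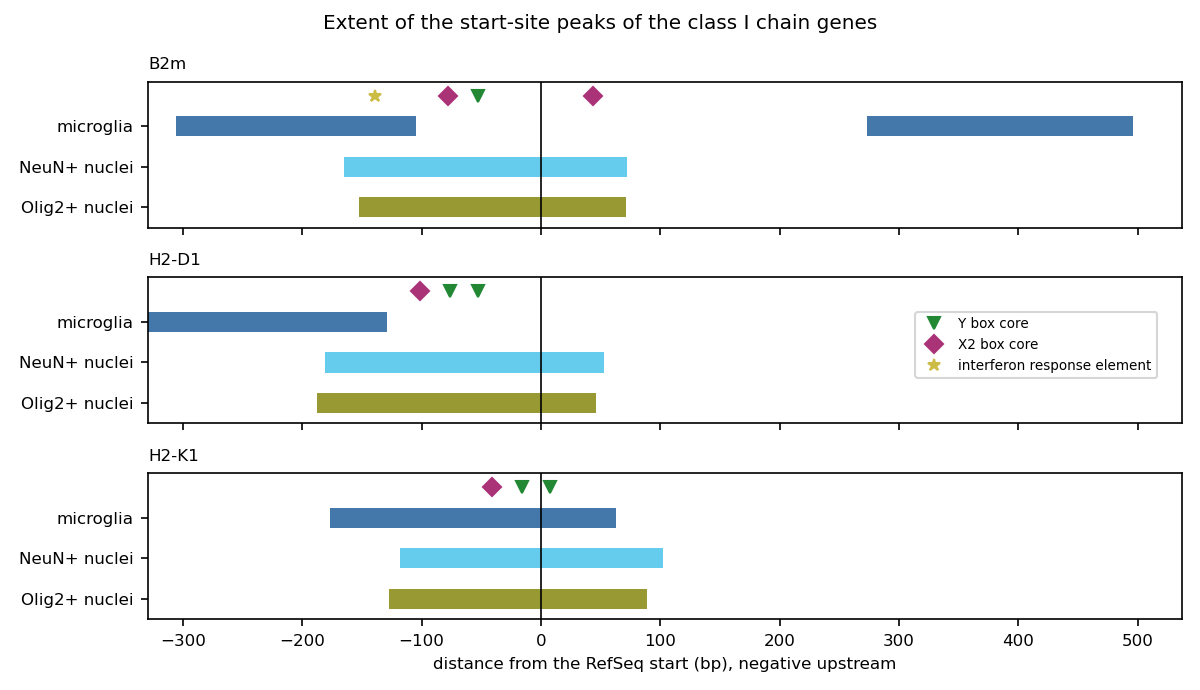
Bars show how far the start-site peaks of B2m, H2-D1 and H2-K1 reach (x axis, bp from the RefSeq start) in each sort, and symbols mark where the letters of the Y box, X2 box and interferon response element begin. At B2m and H2-D1 the microglia bar nearest the start ends at -105 and -129, short of the X2 and Y symbols upstream of the start, which lie within the bars of both nuclei sorts.

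The table names a peak for the nearest start site, so some peaks inside these genes carry another name. There were 12 such peaks in microglia, 12 in NeuN+ and 6 in Olig2+ nuclei within 1000 bp of the genes' RefSeq spans. In each sort 1 was called, where 7.37%, 29.8% and 19.8% of all peaks were. At the RefSeq start of Nlrc5 (chr8:94434193-94434490, named for a neighbouring noncoding gene), microglia had 118 and 82.2 tags in WT and 124 and 71.5 in SgshKO, with overlap. Olig2+ nuclei there had 21.8 and 29.2 tags in WT and 11.7 and 16.6 in SgshKO, a log2 change of -0.81 ± 0.26 (limma adjusted p = 0.0282). In intron 18 of Nlrc5 (chr8:94492022-94492222) microglia had 34.6 and 23.7 tags in WT and 8.66 and 8.36 in SgshKO, without overlap, a log2 change of -1.64 ± 0.46 (adjusted p = 0.0207). A second peak in intron 19 had 51.9 and 43.2 tags in WT and 30.3 and 12.1 in SgshKO (log2 change -1.26 ± 0.42, adjusted p = 0.058). In NeuN+ nuclei the promoter shared by Tap1 and Psmb9 fell, from 55.0 and 72.3 tags in WT to 38.4 and 30.5 in SgshKO (log2 change -0.86 ± 0.19, adjusted p = 0.00237). At the start-site peak nearest each gene, 55.1% of all NeuN+ genes were called lower, and the median log2 change was -0.57.

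Further genes of the pathway were counted at the start-site peak nearest each gene, from 5 lists of 55 genes in all: class I chains and relatives, class I loading, class II chains and loading, regulators, and costimulation. In microglia 53 had such a peak and 5 were called higher and 0 lower, against 12.7% of all genes called higher and 0.929% lower. The list median was 0.05, beside 0.20 over all genes. Of the class I loading genes 3 of 12 rose. Tapbp, which holds class I beside the transporter, went from 133 and 103 tags in WT to 204 and 233 in SgshKO (log2 change 0.90 ± 0.28, limma adjusted p = 0.0451). The proteasome activator subunit Psme2 rose from 467 and 363 tags to 792 and 689 (0.84 ± 0.25, adjusted p = 0.0274), and the chaperone Calr from 457 and 380 to 811 and 622 (0.77 ± 0.25, adjusted p = 0.0483). The costimulatory ligand Cd80 rose from 12.1 and 5.08 tags to 26.8 and 26.0 (1.62 ± 0.48, adjusted p = 0.0294). None of the 13 class I relatives and none of the 8 class II genes with a peak was called by limma. Fewer were called without either WT library, at these genes and over the whole table alike. The list median was then 0.16 without WT replicate 1 and -0.06 without WT replicate 2, beside 0.02 and -0.18 over all peaks. Those 2 values cover peaks of every kind, with a median of -0.08 in the main fit, and are not like the 0.20 above. The median over the start-site peaks of all genes was not computed for these fits. With quantile normalization 2 of the 53 were called higher and 3 lower, where 11.4% of all peaks were called. These alternatives were applied to the lists after seeing the data.

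The 1 regulator called in microglia was Rfxank, a subunit of the RFX complex that binds the X box of class I and class II promoters. Its start-site peak in microglia (chr8:70139136-70139475) had 83.8 and 71.2 tags in WT and 307 and 280 in SgshKO. The groups were far apart, 77.5 ± 8.96 against 294 ± 19.1 tags (SD, n = 2), with a log2 change of 1.91 ± 0.28 (limma adjusted p = 2.22e-05). It was called in all 13 alternatives, at log2 changes from 1.66 to 2.03. In NeuN+ nuclei the same promoter had 292 and 252 tags in WT and 163 and 185 in SgshKO (log2 change -0.64 ± 0.10, adjusted p = 0.000123), and it was called in 9 of 13 alternatives. The log2 change was -0.08 with quantile normalization. With DESeq2 it was -0.425 (adjusted p = 0.0509), and it was -0.55 and -0.73 without SgshKO replicate 1 or 2 (adjusted p = 0.133 and 0.129), in fits that called 0 peaks of the whole NeuN+ table. Olig2+ nuclei had 303 and 287 tags there in WT and 294 and 291 in SgshKO (log2 change -0.014 ± 0.077, limma adjusted p = 0.921). The difference of log2 changes was 2.55 ± 0.19 between microglia and NeuN+ nuclei (limma adjusted p = 6.24e-10). It was 1.93 ± 0.19 between microglia and Olig2+ nuclei (adjusted p = 2.49e-07) and -0.63 ± 0.19 between NeuN+ and Olig2+ nuclei (adjusted p = 0.0159). The medians of these differences over all matched peaks were 0.61, 0.17 and -0.50.

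The Rfxank promoter is printed because its peak had the smallest adjusted p of the pathway genes in microglia. The RefSeq window (GRCm38.p6, chr8:70139148-70139447, minus strand) lies wholly inside the microglia peak, and capitals mark Y box core letters, which begin at -165 and -41.
Rfxank: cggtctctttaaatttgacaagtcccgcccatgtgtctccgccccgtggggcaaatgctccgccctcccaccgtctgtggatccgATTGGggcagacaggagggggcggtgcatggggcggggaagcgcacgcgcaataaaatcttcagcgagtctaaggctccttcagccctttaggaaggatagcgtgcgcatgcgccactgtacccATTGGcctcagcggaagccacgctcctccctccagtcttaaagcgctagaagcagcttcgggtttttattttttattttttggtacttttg
The peak also reaches towards the start of Borcs8 on the opposite strand (chr8:70139499-70148635), a subunit of the BORC complex that positions lysosomes, so the tags cannot be assigned to 1 of the genes. Neither X2 nor E-box letters were found in the Rfxank window.

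In NeuN+ nuclei 36 of the 55 pathway genes had a start-site peak, of which 1 was called higher and 16 lower, where 1.49% of all genes were called higher and 55.1% lower. Their median log2 change of -0.41 lay beside -0.57 for all genes. Called lower were 6 of 12 class I loading genes, 8 of 15 regulators and 2 of 4 class II genes, near the share of all genes. None of the 5 class I relatives with a peak was. The lower ones included Pdia3, from 165 and 167 tags to 87.3 and 75.6, and Irf1, from 26.6 and 23.7 to 9.07 and 17.1. With tags scaled within peaks 2 were higher and 6 lower, and without either SgshKO library none was called (16 at an unadjusted p under 0.05 each time). Mr1, the class I-like molecule that presents microbial metabolites, was the 1 gene higher, from 10.8 and 10.7 tags to 18.9 and 21.6 (log2 change 0.85 ± 0.26, limma adjusted p = 0.0213).

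In Olig2+ nuclei 30 of the 55 had a start-site peak, of which 9 were called higher and 2 lower, against 16.0% and 7.70% of all genes, with a median log2 change of 0.27 beside 0.07. Of the 14 regulators with a peak 7 rose, namely Creb1, Irf1, March1, Nfya, Nfyb, Nfyc and Rfxap. All 3 NF-Y subunits, which bind the Y box, were among them, with Nfya going from 494 and 459 tags to 602 and 605 (log2 change 0.34 ± 0.06, limma adjusted p = 0.000148) and Nfyb from 184 and 190 to 254 and 296 (0.55 ± 0.09, adjusted p = 6.85e-05). Irf1, the interferon-induced activator of class I genes, rose from 8.30 and 9.20 tags to 19.7 and 26.6 (1.29 ± 0.28, adjusted p = 0.00167). The proteasome activator Psme1 rose from 11.4 and 10.2 tags to 29.5 and 27.3 (1.31 ± 0.26, adjusted p = 0.000533) and Mr1 from 4.67 and 4.09 to 11.7 and 11.3 (1.22 ± 0.35, adjusted p = 0.0134). Calr and Psme2, higher in SgshKO microglia, fell by 0.20 and 0.33 on the log2 scale here, and the difference between the sorts was not tested at these 2 genes.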

How the data were processed

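ATAC-seq was done on sorted microglia, NeuN+ nuclei and Olig2+ nuclei. Per the labels' protocols, libraries were selected for short fragments on a gel and sequenced single-end on either of 2 instruments, without saying which library on which. Per the submitters' processing notes, Bowtie2, HOMER and mm10 were used, with no versions or roles given, and nothing on read shifting or duplicate removal is given in the sources used here. For each sort the authors deposited a table of peaks with the nearest gene and a signal, the tag coverage of each peak scaled to 10000000 per library, per the file headers. Whole reads were recovered for 100% of values (within 0.01), and edgeR on those reads called 14132 microglia and 29497 NeuN+ peaks of all in the tables. Gene symbols turned into dates (169, 202 and 168 peaks) were restored from Entrez numbers.

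For each table log2(tags + 1) was fitted with limma 3.58.1 (intensity trend, no covariate, two-sided) over all peaks, with Benjamini-Hochberg adjustment over the table and a threshold of 0.05. Peaks matched 1 to 1 at a reciprocal overlap of 50% entered a model of all 12 libraries. The fits were tested on simulated data. As alternatives, the pseudocount was 0.5 or 5, the lowest 25% of peaks were dropped, and the fit was repeated with in-peak, median-of-ratios and quantile scaling, edgeR 4.0.16 or DESeq2 1.42.0 applied to the recovered reads, a replicate block, leaving out each library, and an overlap of 25%.

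The genes, lists and tests were chosen with earlier results of these data known. Named in the text were, for each gene and sort, the nearest start-site peak, the highest peak and every called peak; other peaks named were chosen after their values were seen. Pathway genes were named where called, and their counts and Rfxank were recomputed under the alternatives as an addition chosen after seeing the data. With 2 libraries a group, an exact permutation test of a single peak cannot reach 0.05, so none was used. Replicates of a group differed by more than the counting noise (chi-square per degree of freedom from 1.18 to 9.84), and none was counted as 1 sample.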

Additional observations from a re-analysis of the deposited data

Results flagged for a closer look

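H2-Eb1 4052, in intron 2 of the class II chain gene, was taken up because its genotype difference was not the same in microglia and NeuN+ nuclei. The log2 change in microglia exceeded that in NeuN+ nuclei by 0.852 (limma adjusted p = 0.028), with both SgshKO libraries above WT in microglia and both below WT in NeuN+ nuclei. It was called in 9 of 17 alternatives, with log2 differences from 0.196 to 1.018 and adjusted p from 0.0105 to 0.674. It was lost with in-peak and quantile scaling and without each of 6 libraries, namely WT replicate 2 and SgshKO replicate 1 of microglia and all 4 NeuN+ libraries.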

How the results depend on the processing

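The count of called microglia peaks, 1 of 51 (7.37% of all microglia peaks), changed along with the count over the whole table. It was 0 with a pseudocount of 0.5, without the lowest 25% of peaks and with DESeq2 (6, 4 and 8 at an unadjusted p under 0.05; 6.80%, 7.42% and 5.36% of all called), 4 with in-peak scaling (15.8% of all), 5 with median-of-ratios scaling (13%) and 5 with edgeR (15.4%). Leaving out a library gave 0 to 9, with 0.607% to 20.5% of all called. In NeuN+ nuclei the count of 4 (29.8% of all) became 1 with in-peak, median-of-ratios and quantile scaling and with edgeR (26.5%, 26%, 15.5% and 27.4%), 0 with DESeq2 (1 at an unadjusted p under 0.05; 4.55%), and 0 to 1 without a library (0% to 13.5%). In Olig2+ nuclei the count of 3 (19.8% of all) became 0 with quantile normalization and with DESeq2 (16.7% and 4.27%), and 0 to 3 without a library (7.37% to 18.9%). The cause was not tested. Leave-out fits have 1 library in an arm, which is assumed to vary like the others.

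Peak by peak, same-numbered replicates did not deviate together (correlation of deviations 0.042 in microglia, 0.0036 in NeuN+ and 0.00069 in Olig2+ nuclei). A shift common to all peaks drops out of this correlation, so it cannot say whether the numbers pair the libraries. With a replicate block 5 microglia peaks (3 higher, 2 lower), 5 NeuN+ peaks and 3 Olig2+ peaks were called, beside 15.8%, 33.2% and 21.4% of all peaks. In microglia the block raised the calls over the whole table from 6765 to 14489.

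Small log2 changes turned sign. In NeuN+ nuclei B2m -47 was 0.075 with DESeq2, 0.078 with edgeR, 0.165 with in-peak, 0.085 with median-of-ratios and 0.096 with quantile scaling, and -0.314 to 0.064 without a library. H2-D1 -64 was 0.094, 0.096, 0.189, 0.109 and 0.155 in the same order, and -0.318 to 0.113. Nlrc5 13344 was 0.053 with DESeq2, 0.052 with edgeR, 0.12 with in-peak and 0.046 with median-of-ratios scaling. H2-Eb1 4054 was 0.019 with in-peak scaling. Without a library H2-K1 -8 was -0.909 to 0.136 and Ciita -11684 was -0.027 to 0.512. In microglia B2m -206 was -0.171 with in-peak and -0.153 with quantile scaling, and -0.281 to 0.35 without a library. H2-K1 -57 was -0.076 and -0.214 with those scalings, and H2-D1 -229 was -0.079 with quantiles. H2-Aa -4052 was 0.007 with DESeq2, 0.0 with edgeR, 0.017 with median-of-ratios scaling and -0.136 to 0.057 without a library, and Cd74 -98 was -0.383 to 0.041. In Olig2+ nuclei H2-Eb1 -111 was 0.136 with edgeR, 0.012 with in-peak, 0.054 with median-of-ratios and 0.194 with quantile scaling, 0.008 with a pseudocount of 5, and -0.433 to 0.422 without a library. H2-K1 -19 was 0.01 with DESeq2, 0.004 with edgeR and -0.395 to 0.233 without a library.

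Of the 7 matched peaks, those higher in WT microglia than in NeuN+ nuclei numbered 3 with in-peak and 4 with quantile scaling, which moved the median of all matched peaks from 0.472 to -0.487 and -0.055. With that common shift H2-Ab1 -135 turned to -0.068 with in-peak scaling, and H2-Eb1 4052 to -0.393 with in-peak and -0.015 with quantile scaling. Against Olig2+ nuclei H2-Ab1 -135 turned to -0.028 with in-peak scaling, where the median of all went from 0.347 to -0.341. The 1 peak whose genotype difference was not the same in microglia and NeuN+ nuclei became 0 with in-peak and quantile scaling and 0 to 1 without a library. Peaks with a handful of reads in a library, such as Cd74 -9365 and H2-K1 8362, are limited by depth.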
